A study of Mus musculus with 9 samples.

Results

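Transcripts of the AP-1 subunit genes Fos, Fosb, Fosl2 and Junb and of Atf3 were followed in the mouse olfactory bulb before and after exposure to odor. The 5 genes were taken by their symbols from a table of 27497 gene identifiers, and each symbol matched 1 identifier. All 5 had a mean of at least 1 RPKM (reads scaled to transcript length and to the size of the library) over the 9 libraries and were among the 12780 genes tested. The mice were adult C57/BL6 animals, 6 to 8 weeks of age or older, with 3 separate mice in each of 3 groups and 1 library of polyadenylated RNA per mouse. Clean air mice lived in air cleaned by activated carbon. The 30 min animals were killed at the end of a 30 min exposure to a cocktail of odorants, and those of the 120 min group had the same 30 min of odor and then 90 min of clean air. The question these groups pose for AP-1 is how fast each subunit gene rises, how long it stays up, and how the mixture of subunit transcripts changes on the way.

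AP-1 is a dimer of basic leucine zipper (bZIP) proteins. Fos proteins pair only with partners such as Jun proteins, and the pairs bind a short palindromic DNA element. Fos, Fosb and Junb belong to the immediate-early genes, which neurons transcribe from pre-existing factors when they fire, and Fos is widely used as a mark of recently active cells, also in the olfactory bulb. Fos and Fosb encode strong activators of transcription, and Fosb also gives a truncated splice form, ΔFosB. Fosl2 encodes Fra-2, a Fos relative without the strong activation domain of Fos. Junb encodes a Jun protein that can form the partner of Fos proteins, and Atf3 encodes a stress-inducible bZIP factor that can pair with Jun proteins. The table holds 1 value per gene, so splice forms such as ΔFosB were not separated.

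Proximal promoters are shown because calcium and cAMP signals of active neurons reach Fos in part through the factor CREB, whose binding element contains the letters TGACG. All 5 genes matched an entry in the RefSeq promoter table (build GRCm38.p6, a later build than the mm9 used for the measurements). In the 250 bases before the RefSeq start, TGACG was found on one of the strands in 4 of the 5, namely Fos, Fosb, Junb and Atf3, and not in Fosl2, against 17.8% of the 32851 promoters in that table. Each sequence below reads 5′ to 3′ on the strand of the gene, with TGACG (or its complement CGTCA) in capitals, and the first 3 are 120 bases long:
Fos, chr12:85473770-85473889, plus strand: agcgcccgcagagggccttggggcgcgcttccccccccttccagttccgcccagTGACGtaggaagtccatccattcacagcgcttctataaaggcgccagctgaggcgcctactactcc
Fosb, chr7:19310056-19310175, minus strand: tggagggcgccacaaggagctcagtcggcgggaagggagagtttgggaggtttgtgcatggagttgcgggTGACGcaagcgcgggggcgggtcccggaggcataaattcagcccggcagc
Junb, chr8:84978749-84978868, minus strand: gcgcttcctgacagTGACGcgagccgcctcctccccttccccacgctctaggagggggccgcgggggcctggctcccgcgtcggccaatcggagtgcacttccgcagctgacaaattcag
Atf3, chr1:191183334-191183363, minus strand: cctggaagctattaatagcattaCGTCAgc

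The match began 66 bases before the start of Fos, 60 before that of Fosb, 106 before that of Junb and 7 before that of Atf3. Fos had a second match that began 129 bases before the start, upstream of the stretch shown. Read with its 3 following bases, the element was TGACGTAG and TGACGACA in Fos, TGACGCAA in Fosb, TGACGCGA in Junb and, on the opposite strand, TGACGTAA in Atf3. The full palindrome TGACGTCA, which contains TGACG, occurred in none of the 5 windows and in 1.55% of the table. The AP-1 element TGACTCA, searched on both strands, likewise occurred in none of the 5 (4.46% of the table), nor did the CArG box, the element of serum response factor (1.47%). TATAAA on the gene strand was found in Fos alone, beginning 33 bases before the start (7.59%). These matches describe letters in one window per gene, and elements farther away were not searched. The 3 stretches of 120 bases overlap no exon of GENCODE M21. The Atf3 stretch lies inside the longer GENCODE gene, with its CGTCA in an annotated exon, and the Fosl2 window, which is not printed, also holds a Fosl2 exon.

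Recovered sequencing depth ranged from 7.14 to 29.9 M counts per library, which for the 5 genes corresponded to roughly 22 to 371 counts for Atf3 and 117 to 11371 for the other 4. Summed levels per library ran from 1027 to 1437 RPKM for 6 markers of mitral and tufted cells, from 1361 to 1769 for 5 of GABAergic interneurons and from 167 to 273 for 3 of dopaminergic cells. Single markers differed widely in level, with clean air means of 568 RPKM for Doc2g and 17.5 for Tbx21 among the first, and 169 for Th and 3.71 for Slc6a3 among the last. The 4 markers of frontal cortex neurons summed to 25.4 to 35.3 RPKM, most of it from Cux2 (listed as Cutl2, 24.4 in clean air), with Tbr1 at 5.17 and Neurod6 at 0.49. The 3 red blood cell markers summed to 38.0 to 145 RPKM in clean air, 153 to 197 at 30 min and 46.3 to 189 at 120 min, with Hba-a2 at 0 in all libraries. On the log2 scale used below, the 6 mitral and tufted markers differed from clean air by -0.27 to 0.90 at 120 min, 4 being above 0. Their median was 0.42, beside 0.03 for all tested genes. By limma, 3 of the 6 had an unadjusted p under 0.05 (9.57% of all tested genes), and none was called. The part of these and of the red blood cell markers in the results was not tested. In whole bulbs, more responding cells and more RNA per cell cannot be told apart. Each value of the 5 genes in clean air mouse 3 was the highest of the clean air group, whereas mouse 3 was the highest of that group for 28.6% of all tested genes.

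At the end of 30 min of odor each of the 5 genes lay above the clean air mice, Fos by the most, and the difference passed the test for 4 of them, with Fosl2 just short of it. At 120 min Fosb, Fosl2 and Atf3 passed the test, Fos lay above each clean air mouse without passing it, and the Junb values lay within the clean air range. The plot of levels by mouse shows these courses. Differences are on the scale of log2(RPKM + 0.5), where the added 0.5 makes small values understate a change, and a gene was called when the Benjamini-Hochberg adjusted p of limma, over all tested genes, was under 0.05. Higher calls made up 0.133% of all tested genes at 30 min and 0.0704% at 120 min against clean air, and lower calls 0.0782% between 30 and 120 min. Both comparisons with clean air share the same 3 clean air mice. The labels give these mice no time point. Odor, the exposure procedure and elapsed time therefore cannot be told apart.

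**Figure D1:**
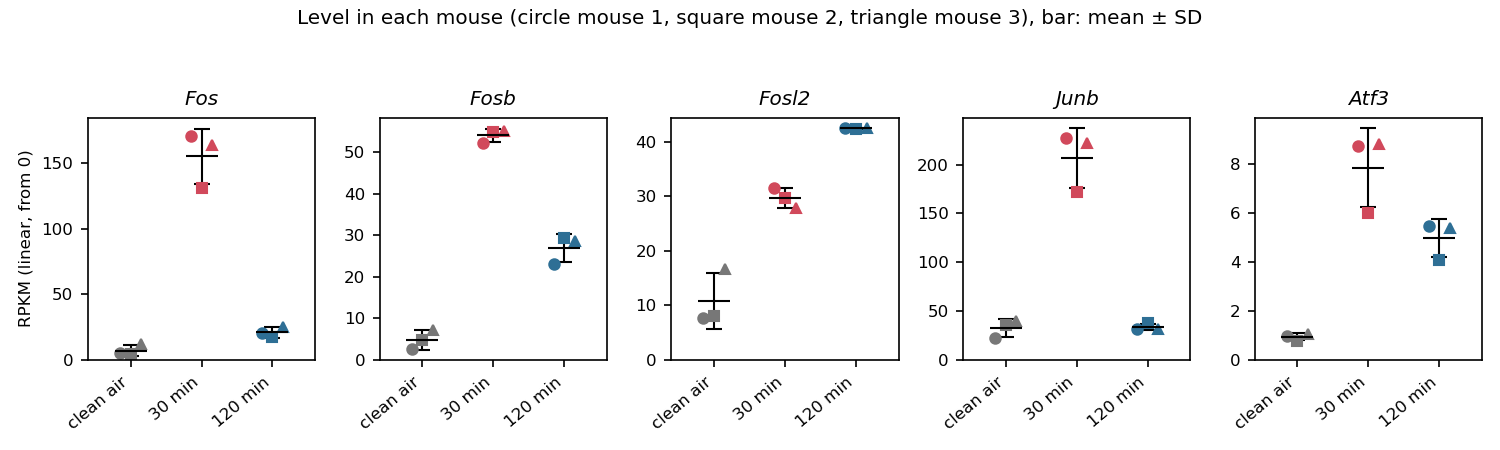
Level of each gene in RPKM (linear axes from 0, a separate scale per gene) in the 9 mice, with the group mean and SD as bars. Fos and Junb peak at 30 min and drop by 120 min. Fosb and Atf3 at 120 min lie between the other groups (a drop not called). Fosl2 is highest at 120 min (a rise from 30 min not called), where its 3 mice lie between 42.48 and 42.66 RPKM.

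Fos stood at 4.73, 4.04 and 12.10 RPKM in clean air mice 1, 2 and 3. It reached 170.80, 131.39 and 163.68 RPKM at 30 min and was back to 20.21, 17.15 and 25.01 RPKM at 120 min. No group overlapped another, and clean air mouse 3 held the highest of the clean air values. Its difference at 30 min was 4.53 ± 0.33 (log2, estimate ± SE of the fit), the largest of the 12780 genes (limma adjusted p = 0.000165). Between 30 and 120 min Fos fell by 2.88 on the log2 scale (7.35-fold, limma adjusted p = 0.00550), rank 2 from the lowest value of all tested genes. Of the rise in mean RPKM at 30 min, 9.33% was left at 120 min. The remaining difference from clean air was 1.65 ± 0.33 and was not called (limma adjusted p = 0.276), although the groups did not overlap. It was called without clean air mouse 3, with 2.11 and an adjusted p of 0.00341, in a range of 0.00341 to 0.703 over 18 alternatives.

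Junb, the Jun family member of the set, was at 22.27, 35.60 and 39.94 RPKM in the clean air mice, and the 30 min mice had 226.85, 171.47 and 221.97 RPKM. At 120 min the mice had 31.11, 37.10 and 31.83 RPKM, all within the clean air range. Junb rose 6.40-fold at 30 min (2.68 ± 0.22, limma adjusted p = 0.000276) and fell 6.09-fold from there to 120 min (-2.61 ± 0.22, adjusted p = 0.000695). The difference between 120 min and clean air was 0.07 with a 95% interval of -0.41 to 0.55 (limma adjusted p = 0.950), and it turned to -0.18 without clean air mouse 1 and to -0.01 without 120 min mouse 2. In mean RPKM, 0.427% of the rise was left. In GENCODE, Junb overlaps Prdx2 on the opposite strand, and reads of the overlap cannot be assigned to either gene without knowing whether counting used strand.

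Fosb was listed at 2.50, 4.65 and 7.16 RPKM in clean air, and the 30 min mice lay close together at 52.25, 54.85 and 55.16 RPKM. At 120 min it was still at 23.06, 29.31 and 28.56 RPKM, above each clean air mouse and below each 30 min mouse. Fosb rose 11.1-fold at 30 min (3.47 ± 0.28, limma adjusted p = 0.000276, rank 3 of all tested genes) and was 5.57-fold above clean air at 120 min (2.48 ± 0.28, adjusted p = 0.0112). The call at 120 min was lost without clean air mouse 2, 120 min mouse 2 or 120 min mouse 3, with an adjusted p of up to 0.101 (0.00207 to 0.101 over 18 alternatives). The difference between 30 and 120 min was -0.998 ± 0.28, with a 95% interval of -1.62 to -0.38, and was not called (limma adjusted p = 0.999). With only the 30 and 120 min mice in the fit it was -0.998 ± 0.13 and also not called. The limma adjusted p was then 0.0827, the lowest of the 18 alternatives. In mean RPKM 45.0% of the rise was left at 120 min.

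Fosl2 followed another course, with its highest level at the later time. It had 7.63, 8.09 and 16.64 RPKM in the clean air mice, 31.49, 29.79 and 27.90 RPKM at 30 min, and 42.66, 42.48 and 42.59 RPKM at 120 min. All 3 groups were separate, with clean air mouse 3 between the other clean air mice and the 30 min mice. At 120 min Fosl2 was 4.06-fold above clean air (2.02 ± 0.25, limma adjusted p = 0.0143), a call lost without clean air mouse 1 or 2 or any of the 120 min mice (adjusted p up to 0.125, 0.000279 to 0.125 over 18 alternatives). At 30 min the difference was 1.51 ± 0.25 and missed the threshold (limma adjusted p = 0.0619). Without clean air mouse 3 it was 1.85 and passed (adjusted p = 0.000245, 0.000245 to 0.352 over 18 alternatives). The step from 30 to 120 min was 0.51 ± 0.25, with a 95% interval of -0.04 to 1.06, and was not called (limma adjusted p = 0.999). The increase over clean air in mean RPKM at 120 min was 168% of that at 30 min.

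Atf3 was the lowest of the 5 at each time. Its values were 0.98, 0.77 and 1.06 RPKM in the clean air mice, 8.71, 5.97 and 8.82 RPKM at 30 min and 5.47, 4.08 and 5.37 RPKM at 120 min. Each mouse of the 120 min group was above the clean air mice and below the 30 min mice. Atf3 rose 5.74-fold at 30 min (2.52 ± 0.22, limma adjusted p = 0.000402) and was 3.80-fold above clean air at 120 min (1.92 ± 0.22, adjusted p = 0.0112). The call at 120 min was lost without clean air mouse 2, 120 min mouse 1 or 120 min mouse 3 (adjusted p up to 0.101, 0.0109 to 0.101 over 17 alternatives). From 30 to 120 min its difference was -0.60 ± 0.22, which was not called (limma adjusted p = 0.999), and 58.5% of the rise in mean RPKM was left. A small noncoding gene, Gm24748, overlaps Atf3 on the opposite strand in GENCODE.

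**Figure D2:**
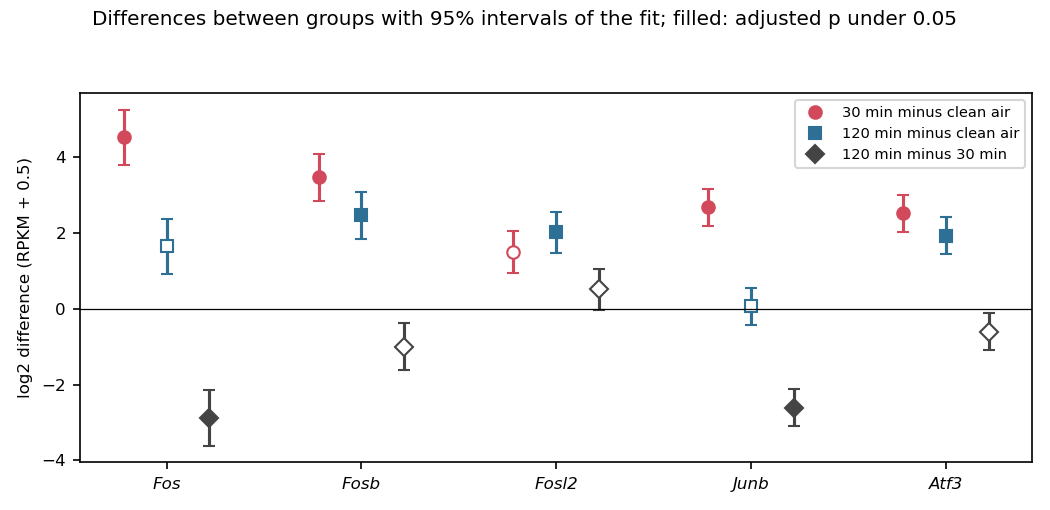
Differences in log2(RPKM + 0.5) for the 3 comparisons with 95% intervals of the fit, filled where limma's adjusted p was under 0.05. The 120 min minus 30 min values run from -2.88 for Fos and -2.61 for Junb to 0.51 for Fosl2.

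All 5 genes were above clean air at 30 min without overlap of the groups, as were 7.29% of all tested genes in that direction. At 120 min 4 of the 5 were, all but Junb, against 7.86% of all tested genes. From 30 to 120 min the groups of Fos, Junb, Fosb and Atf3 were separate in the downward direction (5.66% of all tested genes) and those of Fosl2 in the upward direction (4.99%). The fall was called for Fos and Junb. Whether one gene decayed faster than another was not tested.

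The order of levels per length changed at each time. In clean air it was Junb, Fosl2, Fos, Fosb and Atf3, and the ranges of Fosl2 and Fos and of Fos and Fosb overlapped. At 30 min it was Junb, Fos, Fosb, Fosl2 and Atf3, with no neighbours overlapping and mean RPKM of Junb 1.33 times that of Fos. At 120 min Fosl2 was first, 1.28 times the mean of Junb, followed by Fosb, Fos and Atf3. Fosb exceeded Fos in each of the 3 mice at that time, but their ranges overlapped. Comparisons of level between genes, here and below, rest on the gene lengths used for RPKM, which the sources used here do not state.

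Shares of the summed RPKM of Fos, Fosb and Fosl2 describe the mixture of Fos family transcripts within each mouse, and the plot of these shares has 1 column per mouse. The sum itself was 22.5 ± 11.6 RPKM in the clean air mice (SD, n = 3), 239 ± 20.4 RPKM at 30 min and 90.3 ± 5.26 RPKM at 120 min. Fos made up 31.8%, 24.1% and 33.7% of it in the clean air mice, 67.1%, 60.8% and 66.3% at 30 min and 23.5%, 19.3% and 26.0% at 120 min. Thus 30 min stood apart from both other groups, which overlapped. Fosl2 ran the other way, with 51.3%, 48.2% and 46.4% in clean air, 12.4%, 13.8% and 11.3% at 30 min and 49.6%, 47.8% and 44.3% at 120 min.

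**Figure D3:**
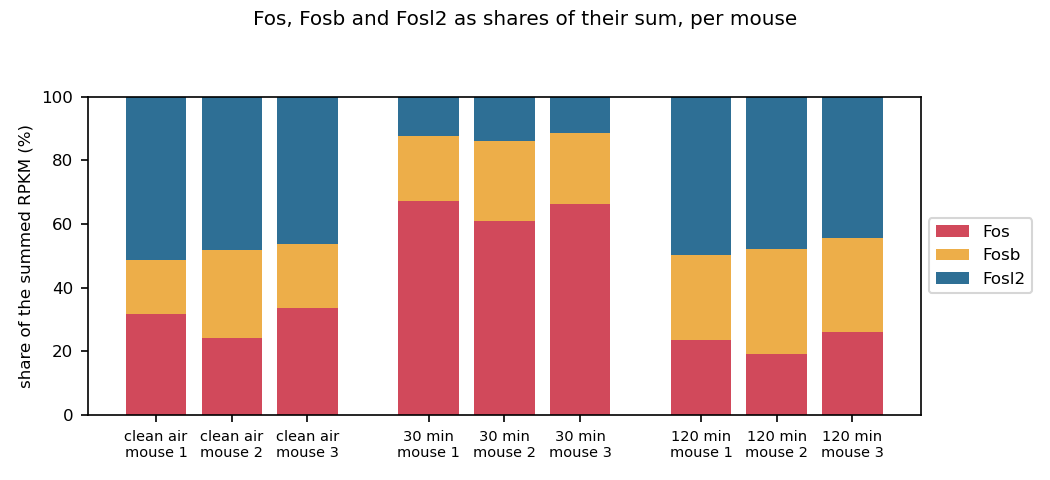
Shares (%) of Fos, Fosb and Fosl2 in their summed RPKM, 1 column per mouse. Fos takes 60.8% to 67.1% at 30 min, and Fosl2 takes 44.3% to 51.3% in clean air and at 120 min.

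The clean air and 120 min shares of Fos and of Fosl2 thus overlapped, at mean sums of 22.5 and 90.3 RPKM. The share of Fosb was 21.5 ± 5.61% in clean air, 22.8 ± 2.46% at 30 min and 29.8 ± 3.06% at 120 min. Its 120 min values, 26.8%, 33.0% and 29.7%, lay above each 30 min value but overlapped the clean air values, of which mouse 2 had 27.7%. Fos had 5.23 ± 0.75 times the level of Fosl2 at 30 min, 0.615 ± 0.114 times in clean air and 0.488 ± 0.093 times at 120 min. These shares and ratios are descriptions without a test, since they combine chosen genes. They also depend on the gene lengths used for RPKM, which are not stated.

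Relative to that sum, Junb was highest in clean air and lowest at 120 min. It stood at 1.50, 2.12 and 1.11 times that sum in the clean air mice, 0.891, 0.794 and 0.900 times at 30 min, and 0.362, 0.417 and 0.331 times at 120 min, so that no group overlapped another. Atf3 was 4.71 ± 1.82% of the sum in clean air, 3.25 ± 0.43% at 30 min and 5.51 ± 0.89% at 120 min. The clean air values of that ratio overlapped both other groups.

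Of the other AP-1 subunit genes, Jund and Fosl1 were measured, Jun is not analysed here, and neither of the 2 was called in any comparison (limma, 0 of 2 also at an unadjusted p under 0.05). Jund, listed under its older symbol Jund1, encodes a Jun protein that many cells make constitutively. It had 162.45, 306.05 and 233.13 RPKM in the clean air mice, 205.56, 161.24 and 239.51 RPKM at 30 min and 202.99, 202.10 and 204.76 RPKM at 120 min. Its log2 difference was -0.18 ± 0.23 at 30 min and -0.15 ± 0.23 at 120 min (limma adjusted p = 0.899 and 0.880). In mean RPKM Jund stood at 234 against 32.6 for Junb in clean air, and at 202 against 207 at 30 min, and the ranges of the 2 genes overlapped at 30 min and not in clean air. Fosl1, which encodes Fra-1, was at 4.60 ± 1.34 RPKM in clean air, 4.37 ± 0.59 at 30 min and 3.99 ± 0.06 at 120 min, with log2 differences of -0.04 ± 0.22 and -0.15 ± 0.22 (limma adjusted p = 0.976 and 0.880).

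Of 32 further bZIP genes listed for comparison, 29 were found and 27 tested, and limma called none in any of the 3 comparisons. An unadjusted p under 0.05 was reached by 2 at 30 min, 4 at 120 min and 2 between the times, beside 5.92%, 9.57% and 3.36% of all tested genes. Their median log2 difference was 0.13 at 30 min and 0.10 at 120 min, beside 0.08 and 0.03 for all tested genes. Nfil3, which encodes a repressor of the bZIP family, had the largest value at 30 min, with 21.48, 16.60 and 16.04 RPKM in the mice of that time against 10.81, 10.46 and 9.16 RPKM in those of clean air (0.79 ± 0.17, adjusted p = 0.349). The 30 min values lay above each clean air value, and the test was not passed. At 120 min Mafk, a small Maf protein gene, had the largest difference in size, at -1.17 ± 0.97, with 4.41, 4.50 and 0.00 RPKM in the mice of that time against 16.57, 0.98 and 5.09 RPKM in those of clean air. The related Mafg had the largest between the times (1.51 ± 0.65, adjusted p = 0.999), where 120 min mouse 1 held 60.86 RPKM and the other mice 16.56 and 18.63 RPKM. Dbp, a clock-controlled factor and the most abundant of the list in clean air, had 85.2 ± 3.51 RPKM there and 50.2 ± 8.39 RPKM at 120 min (-0.77 ± 0.18, limma adjusted p = 0.339).

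**Figure D4:**
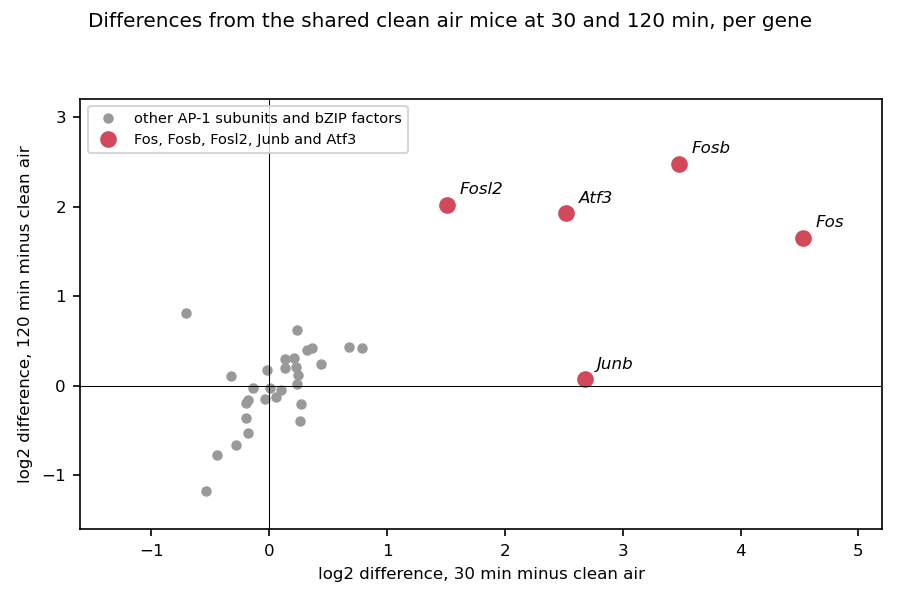
Log2 differences from clean air at 30 min (x axis) and 120 min (y axis) for Fos, Fosb, Fosl2, Junb and Atf3 (red) and for the 29 other AP-1 and bZIP genes tested (grey). The grey genes lie between -0.71 and 0.79 on the x axis, whereas the red genes lie at 1.51 or above. On the y axis the grey genes lie between -1.17 and 0.81, and Junb, at 0.07, lies among them. Both axes use the same clean air mice.

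Kinases and transcription factors that act upstream of Fos and Jun genes were not called either, with 24 of 26 listed genes tested. An unadjusted p under 0.05 was found for 4 at 30 min, 5 at 120 min and 1 between the times, where all tested genes had 5.92%, 9.57% and 3.36%. The medians were 0.21 and 0.20 at 30 and 120 min. Elk4, which encodes a partner of serum response factor, had the largest difference at both times, with 0.67 ± 0.28 at 30 min and 0.96 ± 0.28 at 120 min (limma adjusted p = 0.818 and 0.342). It went from 4.33, 1.88 and 3.01 RPKM in clean air to 4.74, 4.88 and 5.26 RPKM and then to 4.42, 7.63 and 6.85 RPKM. Srf itself, the gene of serum response factor, had 0.49 ± 0.19 and 0.30 ± 0.19 (adjusted p = 0.818 and 0.674). Mkl1, a coactivator gene of that factor, had the largest value between the times (0.44 ± 0.22, adjusted p = 0.999). The most abundant of this list in clean air was the MAP kinase kinase gene Map2k1, at 185 ± 16.0 RPKM there, 184 ± 32.9 at 30 min and 163 ± 4.04 at 120 min. The MAP kinase gene Mapk3 had means of 155, 201 and 213 RPKM and exceeded it at both later times.

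Genes widely described as AP-1 targets gave no call, with 11 of 16 listed tested. At an unadjusted p under 0.05 there was 1 at 30 min, 1 at 120 min and 0 between the times (5.92%, 9.57% and 3.36% of all tested genes). Hmox1, the heme oxygenase gene, had the largest value of the list at 30 min (0.78 ± 0.57) and between the times (-0.36 ± 0.57). The enkephalin precursor gene Penk1, the most abundant, had 180 ± 59.9, 209 ± 13.8 and 205 ± 9.10 RPKM in clean air, at 30 min and at 120 min. The list medians were 0.06 at 30 min and 0.09 at 120 min.

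Stress response genes, listed because Atf3 is a known target of the integrated stress response, numbered 11, of which 9 were tested and none called. Atf5 and Ddit3 were also among the further bZIP genes above. Ppp1r15a, a phosphatase subunit gene listed as Myd116, had 10.53, 13.19 and 11.00 RPKM in the clean air mice, 20.98, 14.95 and 21.72 RPKM at 30 min and 8.13, 14.30 and 10.81 RPKM at 120 min. Its difference was 0.70 ± 0.23 at 30 min (limma adjusted p = 0.749), -0.09 ± 0.23 at 120 min (adjusted p = 0.934) and -0.78 ± 0.23 between the times (adjusted p = 0.999). It held the unadjusted p under 0.05 of the list at 30 min and between the times, 1 each, and at 120 min there were 2, with the same shares of all tested genes as above. The transcription factor gene Atf5 had -0.66 ± 0.20 at 120 min (adjusted p = 0.350), the largest of the list at that time. Ddit3, the gene of the stress factor CHOP, had 52.3 ± 13.9 RPKM in clean air, 46.0 ± 14.7 at 30 min and 39.8 ± 1.83 at 120 min. The chaperone gene Hspa5, the most abundant, had 57.6 ± 5.98, 58.7 ± 7.24 and 65.2 ± 8.37 RPKM.

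The tested genes with the most similar profiles were found from the root mean square difference between log2(RPKM + 0.5) values, each gene centred on its own mean over the 9 libraries. This measure takes in the study's groups, so a low value describes likeness over 3 groups of 3 mice. Closest to Fos were Arc (0.53), Egr1 (0.55) and Nr4a1 (0.68), against a median of 1.91 over all other tested genes. Closest to Junb were Btg2 (0.21), Egr4 (0.29) and Npas4 (0.30), with a median of 1.28. Btg2 had mean levels of 5.46, 38.9 and 5.84 RPKM in clean air, at 30 min and at 120 min, a peak and return like those of Junb.

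Fosl2 lay nearest to Egr3 (0.24), Nr4a3 (0.33) and Zfp69 (0.37), with a median of 0.94. The zinc finger gene Egr3 likewise had its highest level at 120 min, with means of 20.1, 64.0 and 99.5 RPKM at the 3 times. Zfp69, at 1.01, 3.66 and 3.84 RPKM, was called at neither time (limma adjusted p = 0.559 and 0.339). For Atf3 the nearest were Nr4a3 (0.44), Nr4a2 (0.46) and B3galt5 (0.53), with a median of 1.10, and B3galt5 too was called at neither time. For Fosb the nearest were Nr4a3 (0.72), Egr1 (0.75) and Nr4a1 (0.75), with a median of 1.50. Among the 5 genes themselves, Fosb and Atf3 were the most alike (0.55), followed by Fosl2 and Atf3 (0.59), and Fos and Fosl2 the least (1.53).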

How the data were processed

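Polyadenylated RNA of 9 olfactory bulb samples was sequenced, 1 library per mouse. Reads were aligned with Bowtie to mm9, per the submitters' processing notes, while the sources used here do not state the Bowtie version, annotation, counting rule or strand setting. The authors deposited RPKM for 27497 identifiers, and these values were used without further scaling. Columns were matched to mice by the codes in the sample descriptions.

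The fit took log2(RPKM + 0.5) of the 12780 genes whose mean reached 1 RPKM, by limma 3.58.1 (lmFit and trended eBayes, R 4.3.3), in 1 model of 3 groups without a block (6 residual degrees of freedom). Tests were two-sided, with Benjamini-Hochberg adjustment over all tested genes at a threshold of 0.05. The fit was tested on simulated data. Shares were computed per mouse and likeness over the 9 libraries, both from the same values.

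Depth was recovered from the spacing of values of single-exon RNAs under 200 nt. With lengths 34 nt shorter than in GENCODE M21, 86.0% to 93.1% of multiples were whole within 0.05, against at most 28.6% at full length. Counts per gene are approximate, since they use GENCODE lengths. For 1 kb, 3 counts corresponded to 0.100 to 0.420 RPKM, which covers counting error only.

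List genes were matched by Ensembl identifier, with the table's symbols printed. Named from each list were called genes, the most abundant in clean air, and the largest change per comparison, plus for each of the 5 genes the 3 most similar profiles. This rule was not applied to a few listed genes that are not reported here. The markers named, Mapk3, Srf and Ddit3 were picked after their values were seen. The 5 genes and the lists were chosen with earlier results of these data known. Alternatives were other pseudocounts, filters, scalings, fits and each mouse left out.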

Additional observations from a re-analysis of the deposited data

Results flagged for a closer look

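The levels of Fos and Junb differed between the times, by limma's test of 120 min minus 30 min. Fos had a log2 difference of -2.88 ± 0.33 (adjusted p = 0.00550, 0.000116 to 0.0468 over 18 alternatives), and each 120 min mouse was below each 30 min mouse. Junb had -2.61 ± 0.22 (adjusted p = 0.000695, 0.000226 to 0.0107 over 18 alternatives), again with each 120 min mouse below each 30 min mouse.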

How the results depend on the processing

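The calls of Fos, Fosb, Junb and Atf3 at 30 min and of Fos and Junb between 30 and 120 min kept their direction and passed under the 18 alternatives tried (17 for Atf3, which a mean of at least 5 RPKM removes). With that filter Fosl2 at 30 min (1.51) passed at adjusted p = 0.0361, and 7 genes in place of 11 were called at 120 min. With only the 2 groups compared in the fit, Fosb (2.48, adjusted p = 0.0556), Fosl2 (2.02, 0.0714) and Atf3 (1.92, 0.0594) missed the threshold at 120 min and 2 genes were called. In this setting the spread comes from the 2 compared groups alone. The SE of Fosb was then 0.32 for 120 min against clean air and 0.13 for 120 against 30 min. Why the calls were lost was not tested. With pseudocounts of 0.1 and 1 Atf3 had 2.92 and 2.17 at 30 min.

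With each mouse left out, log2 differences at 120 min against clean air ranged from 1.37 to 2.11 for Fos, 2.12 to 2.80 for Fosb, 1.83 to 2.37 for Fosl2, 1.84 to 2.05 for Atf3 and -0.18 to 0.24 for Junb, which was -0.18 without clean air mouse 1 and -0.01 without 120 min mouse 2. Fosl2 at 30 min ranged from 1.32 to 1.85. The percentage of the Junb rise left at 120 min was -2.62 and -0.651 without those mice. The number of genes called at 120 min ranged from 0 to 11. It was 6 with clean air mouse 1 left out and 3 with 120 min mouse 1 or 120 min mouse 2 left out. In limma's fits lacking clean air mouse 2 and 120 min mouse 3 it was 0, with 1092 and 855 genes at an unadjusted p under 0.05 (1223 with all mice).

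Mouse numbers recur across the groups, and same-numbered libraries had correlated deviations from their group means (0.081 to 0.444, over 0.1 in 7 of 9 pairs). Pairs of differing numbers had -0.380 to 0.086, and the 2 ranges overlapped. The numbers are those of the sample titles. The codes in the sample descriptions do not all match between clean air and odor mice of the same number. Each of the 9 libraries correlated best with one of its own number, a hint from the data and not the design. With the mouse number as a replicate block, the log2 differences of the 5 genes were as in the fit without it, no call of theirs changed, and 22, 11 and 10 genes were called in place of 18, 11 and 10. Genes at an unadjusted p under 0.05 by limma numbered 1396, 1910 and 854 with the block, and 756, 1223 and 430 without it. The SE of Fos was 0.24 with the block and 0.33 without it. The block gave Fos at 120 min (1.65) an adjusted p of 0.0718, in the range of 0.00341 to 0.703.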
